A study of Drosophila melanogaster with 4 samples.

Results

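The 10 genes described here belong to the Jonah family of *Drosophila* digestive proteases and were taken by their FlyBase symbols from a count table of 17807 genes. They are Jon25Bi, Jon25Bii, Jon25Biii, Jon44E, Jon65Ai, Jon65Aiii, Jon65Aiv, Jon66Ci, Jon66Cii and Jon74E. All 10 were found, were detected in every library and passed the filter on low counts. The RNA came from whole guts of 7-day-old females of 2 genotypes, WT (the *yw* strain) and wh7 (a mutant allele of *dwdr4*, also called *wuho*), with 2 libraries per genotype and a pool of 20 to 30 guts per library. The mutation was carried by the whole animal and not by the gut alone, and the paper lists these females as homozygous. It describes outcrossing wh7 to *yw* for its lifespan assay but does not say so for the sequenced guts. The part of strain background in the differences was not tested. The labels do not say whether the pools came from separate cultures, and p-values here measure the spread between pools.

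Jonah genes encode serine proteases of the chymotrypsin-like fold, which cut the peptide chains of food proteins. In the adult fly they are made mainly by enterocytes (ECs), the absorptive cells of the midgut epithelium, and are secreted into the gut lumen. Many of them lie in small tandem groups, and each gene name carries the cytological band in which the gene lies. The substrates of the single members are less well known than the family as a whole, so that the members are described below by group.

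Library totals were 93603837 to 101610356 counts, and 11979 to 12077 genes had at least 1 count. The counts of *wuho* were 1489 and 1256 in WT and 2 and 3 in wh7, so the low counts were in the libraries labelled as mutant. The WT pools differed from each other more than the wh7 pools did. Of 8893 genes with a mean of at least 100 normalized counts, 899 differed over 2-fold between the WT pools and 221 between the wh7 pools. The listed EC markers were all present, with 7 of 7 detected in every library, and the 4 ovary markers analysed summed to 214 to 461 normalized counts in a library. In such bulk samples, fewer cells of a type and less RNA per cell cannot be told apart. An exact permutation test of 2 against 2 libraries has a smallest two-sided p of 0.33, so single genes were tested only by a model fitted across all genes.

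Relative to each other, the Jonah members fell into 7 genes of high and 3 of low abundance. Levels between genes were compared per kilobase of exon, since counts grow with transcript length, and all values in this paragraph are normalized counts per kilobase. In WT, Jon65Aiv stood first with 1587504 and 2079710, followed by Jon65Aiii with 932706 and 1211156. These ranges did not overlap with each other or with those of the members below. The 3 genes of band 25B came next with means of 425461 for Jon25Biii, 396450 for Jon25Bi and 338236 for Jon25Bii. Their WT libraries overlapped, so no order among them is given. Jon65Ai followed with a mean of 117174 and Jon44E with 22172. The other members were far lower, with WT means of 579 for Jon66Ci, 575 for Jon74E and 409 for Jon66Cii. Jon66Ci overlapped with both of the others, while Jon74E was above Jon66Cii in each WT library.

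The order differed in wh7. Jon65Aiv was still first, with 990484 and 1117642 normalized counts per kilobase. Jon25Biii came next with 771220 and 854961, followed by Jon25Bii with 547899 and 683601, both above Jon65Aiii with 461819 and 496680. In WT both had been below Jon65Aiii in each library. Jon65Aiii overlapped in wh7 with Jon25Bi, which had 385663 and 476682. In ranks over all genes by raw counts, Jon65Aiii was 11 and 10 in the WT libraries and 27 and 24 in wh7, while Jon25Biii was 42 and 24 in WT and 14 and 14 in wh7.

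**Figure D1:**
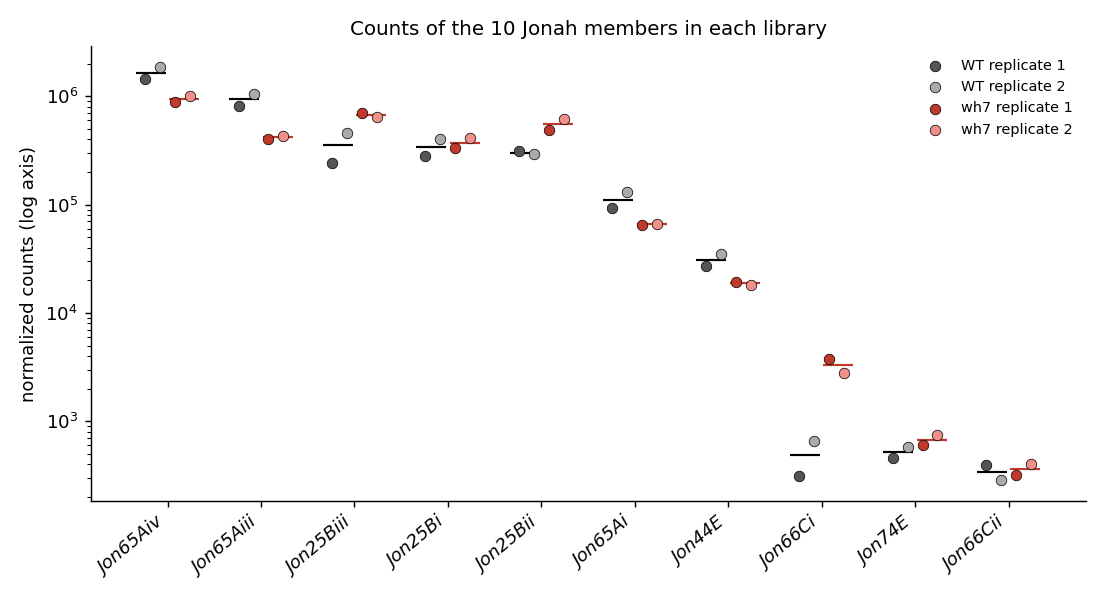
Normalized counts of each Jonah member (horizontal axis, ordered by WT level per kilobase) in each of the 4 libraries, on a log axis. Points are libraries and short lines are genotype means (n = 2 each), and the wh7 points lie below WT for Jon65Aiv, Jon65Aiii, Jon65Ai and Jon44E, above WT for Jon25Biii, Jon25Bii, Jon66Ci and Jon74E, and overlap for Jon25Bi and Jon66Cii.

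The question put to these data was whether the abundance of each protease differed between wh7 and WT guts. The members differed in both directions, and no single direction described the family. Between wh7 and WT, 4 members were higher in both wh7 libraries than in either WT library (Jon66Ci, Jon25Biii, Jon25Bii and Jon74E), 4 were lower in both (Jon65Aiii, Jon65Aiv, Jon65Ai and Jon44E) and 2 overlapped (Jon25Bi and Jon66Cii). Over all 10795 genes tested, 23.8% were higher without overlap and 22.9% lower without overlap. The median log2 fold change of the 10 members was 0.10, beside -0.02 over all genes tested.

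None of the 10 members passed an adjusted p of 0.05 in edgeR's quasi-likelihood test, in which 52 genes or 0.482% of those tested were called. At an unadjusted p under 0.05 in that test, 2 members were higher (Jon66Ci and Jon25Bii) and 4 lower (Jon65Aiii, Jon44E, Jon65Aiv and Jon65Ai). The same limit was met by 7.23% of all genes tested on the higher side and by 7.32% on the lower side. DESeq2's Wald test called 5 members (Jon66Ci and Jon25Bii higher, Jon65Aiii, Jon65Aiv and Jon44E lower) against a share of 7.04% of the genes to which it gave an adjusted p. With WT replicate 1 left out, edgeR called Jon66Ci, Jon65Aiii, Jon65Aiv, Jon65Ai and Jon44E among 401 genes in all. With WT replicate 2 left out it called Jon66Ci, Jon65Aiii and Jon25Biii among 921 genes, and with either wh7 library left out it called none. The calls therefore depended on the tool and on the pools used. Jon66Ci, Jon25Biii and Jon25Bii had also been picked by the study from these libraries, so their direction is not independent evidence. The study's own analysis gave each of them a smaller log2 fold change, and its adjusted p for Jon25Biii and Jon25Bii was above 0.05.

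**Figure D2:**
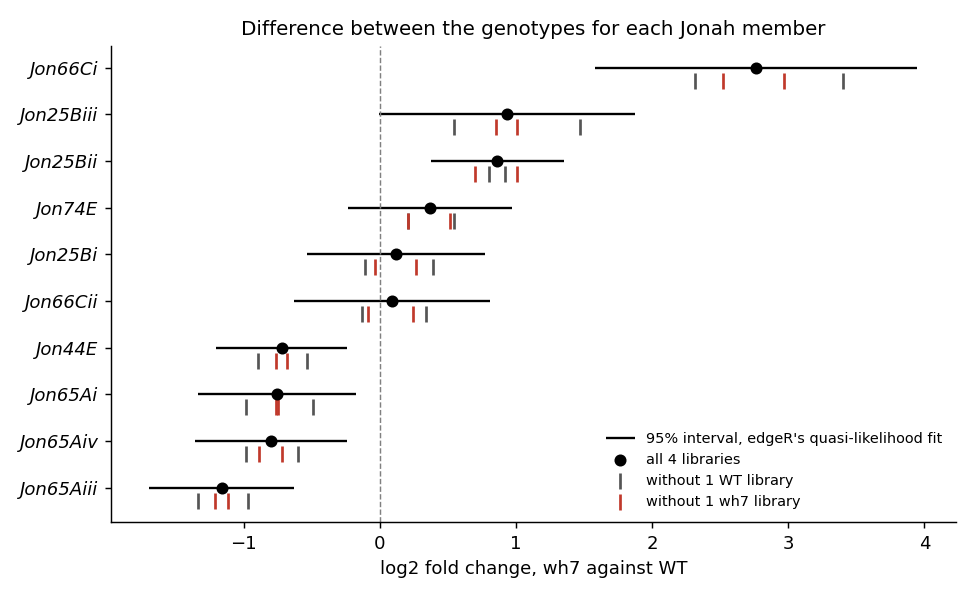
Log2 fold change of wh7 against WT for each Jonah member (horizontal axis), with the 95% interval of edgeR's quasi-likelihood fit and, as ticks, the value with 1 library left out. The point for Jon66Ci lies at 2.76 and that for Jon65Aiii at -1.16, and the ticks for Jon25Bi and Jon66Cii fall on both sides of 0.

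Jon66Ci showed the widest difference of the 10 members. It lies beside Jon66Cii on chromosome arm 3L, on the opposite strand and with no annotated gene between them. Jon66Ci stood at 310 and 660 normalized counts in the WT pools and at 3800 and 2788 in the wh7 pools. Both wh7 libraries were above both WT libraries, and the WT pools themselves differed 2.13-fold. The mean was 6.79-fold higher in wh7 (log2 fold change 2.76, SE 0.44, 95% interval 1.58 to 3.95, edgeR adjusted p = 0.105, DESeq2 adjusted p = 8.30e-09). Of the 10795 genes tested, 102 had a larger log2 fold change. Without WT replicate 1 the log2 fold change was 2.32 (edgeR adjusted p = 0.0354) and without WT replicate 2 it was 3.40 (edgeR adjusted p = 0.0189), while without either wh7 library the adjusted p was 0.486 or 0.463.

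Jon66Cii did not follow its neighbour. It stood at 394 and 284 normalized counts in the WT pools and at 318 and 403 in the wh7 pools, and the genotypes overlapped (log2 fold change 0.09, 95% interval -0.63 to 0.81). The ratio of raw counts of Jon66Ci to Jon66Cii within a library needs no scaling between libraries. It was 0.788 and 2.32 in WT and 11.9 and 6.92 in wh7. Neither gene that flanks the pair was higher in wh7. ImpE1 had a log2 fold change of -3.36 (SE 0.88) and CG7120 one of -0.57 (SE 0.28), with edgeR adjusted p-values of 0.213 and 0.456. The value for ImpE1 rested on few raw counts, 301 and 69 in the WT pools and 11 and 26 in the wh7 pools.

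Even in wh7, Jon66Ci made up a minute part of the Jonah counts. Its share of the library was 0.000336% and 0.000662% in WT and 0.00390% and 0.00294% in wh7, and its share of the counts of the 10 members was at most 0.130% in any library. Among 6011 other genes with a mean of at least 1000 raw counts, CG7408, CG7227 and PGRP-SC2 lay nearest to its pattern over 4 libraries. Their root mean square distances were 0.19, 0.20 and 0.22 on the centred log2 scale. PGRP-SC2 encodes a secreted enzyme that degrades bacterial peptidoglycan. It stood at 20754 and 52269 normalized counts in the WT pools and at 198020 and 164346 in the wh7 pools. As with Jon66Ci, the lower WT value was that of replicate 1, which follows from the choice by pattern. With 4 libraries many genes can share such a pattern, and the likeness is a description only.

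The genes of band 25B lie side by side on arm 2L, all on the same strand, in the order Jon25Biii, Jon25Bii and Jon25Bi. Jon25Bii stood at 313500 and 291267 normalized counts in the WT pools and at 489822 and 611139 in the wh7 pools. The genotypes did not overlap and the WT pools were close to each other. The mean was 1.82-fold higher in wh7 (log2 fold change 0.86, SE 0.18, edgeR adjusted p = 0.157, DESeq2 adjusted p = 0.00405).

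Jon25Biii stood at 242034 and 461679 normalized counts in the WT pools and at 707053 and 637799 in the wh7 pools. Both wh7 libraries were higher, but the WT pools differed 1.91-fold, about as much as the genotypes. The mean was 1.91-fold higher in wh7 (log2 fold change 0.93, SE 0.35, edgeR adjusted p = 0.346, DESeq2 adjusted p = 0.107). The value turned on the WT pool used, with 0.54 without WT replicate 1 and 1.47 without WT replicate 2, where the edgeR adjusted p was 0.0212.

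Jon25Bi, the third gene of the band, differed from its neighbours in showing overlap. It stood at 283835 and 402817 normalized counts in the WT pools and at 333985 and 412807 in the wh7 pools, with a log2 fold change of 0.12 (95% interval -0.53 to 0.77). This interval does not show that the genotypes were alike. Summed over the 3 genes, band 25B reached 839368 and 1155763 normalized counts in the WT pools and 1530859 and 1661745 in the wh7 pools, a ratio of 1.60. The flanking genes were much less abundant. The log2 fold change was 0.21 (SE 0.26) for jet, on one side, and 0.50 (SE 0.20) for Marcal1, on the other.

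The members of band 65A lie on arm 3L in the order Jon65Aiv, Jon65Aiii and Jon65Ai, with Jon65Aii, another Jonah gene, between the last 2. Jon65Aiv, the most abundant member, stood at 1435103 and 1880058 normalized counts in the WT pools and at 895398 and 1010348 in the wh7 pools. All values of wh7 were below those of WT. The mean in wh7 was 0.575 of that in WT (log2 fold change -0.80, SE 0.21, edgeR adjusted p = 0.211, DESeq2 adjusted p = 0.0231). It ranked 5 and 4 among all genes in the WT libraries and 8 and 6 in wh7.

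Jon65Aiii stood at 816118 and 1059761 normalized counts in the WT pools and at 404092 and 434595 in the wh7 pools. The gap between the genotypes was larger than the gap within either. The mean in wh7 was 0.447 of that in WT (log2 fold change -1.16, SE 0.20, 95% interval -1.69 to -0.63, edgeR adjusted p = 0.112, DESeq2 adjusted p = 6.89e-05). With either WT library left out the edgeR adjusted p was 0.0233 or 0.0250, and with either wh7 library left out it was 0.645 or 0.633. Relative to Jon65Aiv in the same library, Jon65Aiii stood at 0.569 and 0.564 in WT and at 0.451 and 0.430 in wh7.

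Jon65Ai, on the opposite strand from the other genes of the band, stood at 92233 and 130633 normalized counts in the WT pools and at 65564 and 66548 in the wh7 pools. The wh7 pools were nearly equal and both were below WT. The mean in wh7 was 0.593 of that in WT (log2 fold change -0.75, SE 0.22, edgeR adjusted p = 0.245, DESeq2 adjusted p = 0.0608). Jon65Aii, which lies between these lower genes, stood at 54475 and 86708 normalized counts in the WT pools and at 103681 and 67948 in the wh7 pools, with overlap and a log2 fold change of 0.28 (SE 0.33). The genes outside the group, CG6462 and tant, had log2 fold changes of -0.21 (SE 0.23) and -0.10 (SE 0.20).

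The gene yip7, which lies close to the 65A group on the same arm, had counts that followed those of Jon65Aiii. The ratio of raw counts of Jon65Aiii to yip7 was 0.936 and 0.975 in WT and 0.911 and 0.922 in wh7. For yip7 the log2 fold change was -1.10 (SE 0.18). Reads can be divided between similar genes in counting, and the share of reads that fitted more than 1 Jonah gene was not analysed here. The members of each band were also counted as 1 feature, an alternative chosen after the data were seen. In that fit the log2 fold change was 0.68 (SE 0.22) for the 25B members, -0.91 (SE 0.21) for the 65A members and 2.15 (SE 0.24) for Jon66Ci with Jon66Cii, with edgeR adjusted p-values of 0.286, 0.172 and 0.0672. With Jon65Aii and yip7 counted into the same feature as the 65A members, the log2 fold change was -0.92 (SE 0.20, edgeR adjusted p = 0.164).

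Jon44E and Jon74E stand alone in their bands. Jon44E stood at 27091 and 34858 normalized counts in the WT pools and at 19300 and 18266 in the wh7 pools, again without overlap. The mean in wh7 was 0.606 of that in WT (log2 fold change -0.72, SE 0.18, edgeR adjusted p = 0.197, DESeq2 adjusted p = 0.0396). The annotation places CG8586 across Jon44E on the other strand, and how strand was used in counting is not given in the sources used here. CG8586 was also lower, with a log2 fold change of -0.79 (SE 0.18). It was much less abundant, with raw counts per library of 599 to 1138, beside 18743 to 32723 for Jon44E. How reads were divided between the pair was not tested, and their counts are uncertain to that extent.

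Jon74E was among the 3 members of low abundance. It stood at 458 and 581 normalized counts in the WT pools and at 598 and 743 in the wh7 pools, so that the lowest wh7 value lay just above the highest of WT (log2 fold change 0.37, SE 0.22, edgeR adjusted p = 0.551). The gene beside it, CG7542, had a log2 fold change of 1.19 (SE 0.26, edgeR adjusted p = 0.164), and Nedd4, on the other side, one of 0.04 (SE 0.14).

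The sum of the 10 members answers whether these genes together took a smaller or larger part of the library. Of all counts, the members took 3.47% and 4.27% in WT against 2.999% and 3.37% in wh7. The exact 95% binomial interval was narrow in each, for instance 3.468% to 3.476% in WT replicate 1, and covers counting error only. The means were 3.87% ± 0.568 in WT and 3.19% ± 0.264 in wh7 (SD, n = 2 each), a ratio of 0.822. The genotypes did not overlap, but the gap between the genotypes was smaller than the distance between the WT pools.

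After scaling, the sum was 3211076 and 4262598 normalized counts in the WT pools and 2919929 and 3195437 in the wh7 pools, a ratio of 0.818. The ratio rested mostly on Jon65Aiv and Jon65Aiii. Without Jon65Aiii it was 0.943. Without Jon65Aiv, the sum of the other 9 members was 1775972 and 2382541 in WT and 2024531 and 2185088 in wh7, with overlap and a ratio of 1.01. Without any 1 of the other 8 members it was 0.705 to 0.825.

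The make-up of the sum differed more clearly than its size. Jon65Aiv held 44.4% ± 0.415 of the member counts in WT and 31.1% ± 0.674 in wh7 (SD, n = 2 each). Jon65Aiii held 25.1% ± 0.392 in WT and 13.7% ± 0.169 in wh7. In the other direction, Jon25Biii held 9.18% ± 2.33 in WT and 22.1% ± 3.01 in wh7, and Jon25Bii 8.30% ± 2.07 in WT and 18.0% ± 1.66 in wh7. Jon25Bi, whose scaled counts overlapped, held 9.14% ± 0.432 in WT and 12.2% ± 1.05 in wh7. Such shares are tied to each other, since they add up to the whole.

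**Figure D3:**
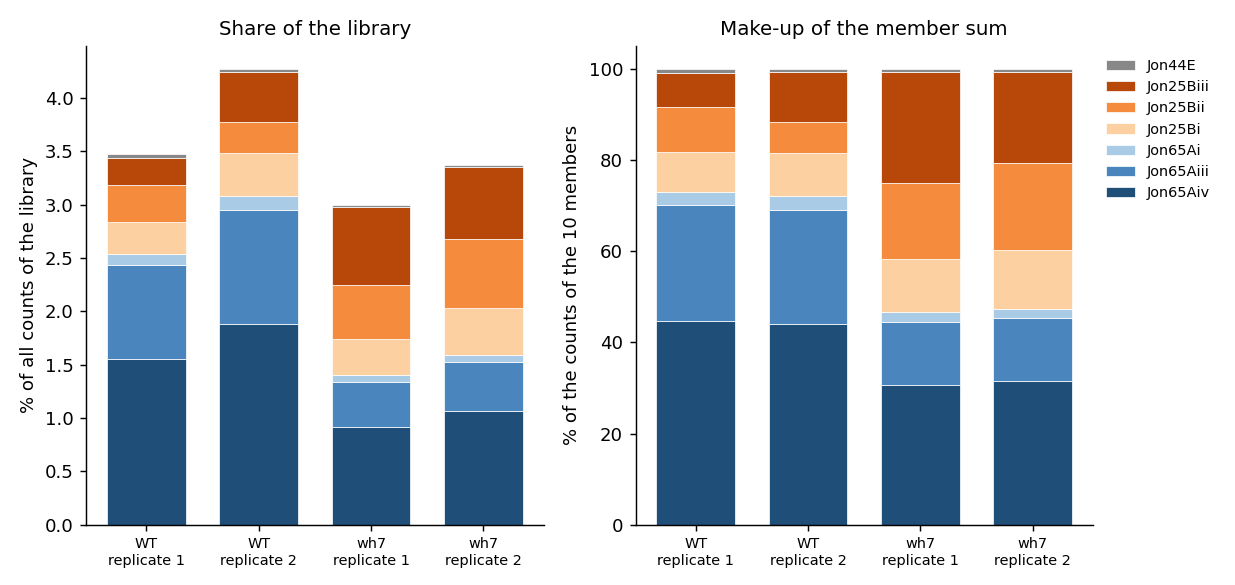
Counts of the Jonah members in each library, as a percentage of all counts of the library (left) and of the counts of the 10 members (right); Jon66Ci, Jon66Cii and Jon74E are too small to be drawn. The bars of the 65A genes (blue) are shorter in wh7 and those of Jon25Bii and Jon25Biii (darker orange) taller, while the whole stack goes from 3.47% and 4.27% of the library in WT to 2.999% and 3.37% in wh7.

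One ratio put these differences together without any scaling between libraries. The raw counts of the 3 members of band 25B, divided by those of the 3 members of band 65A, gave 0.358 and 0.376 in WT and 1.12 and 1.10 in wh7. Within each genotype the pools were close, although these 6 members differed by 1.08 to 1.91-fold between the WT pools. The mean ratio was 3.02-fold higher in wh7 and 2.95 to 3.10-fold higher with any 1 library left out. This ratio was formed after the values were seen, so no test is given for it.

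**Figure D4:**
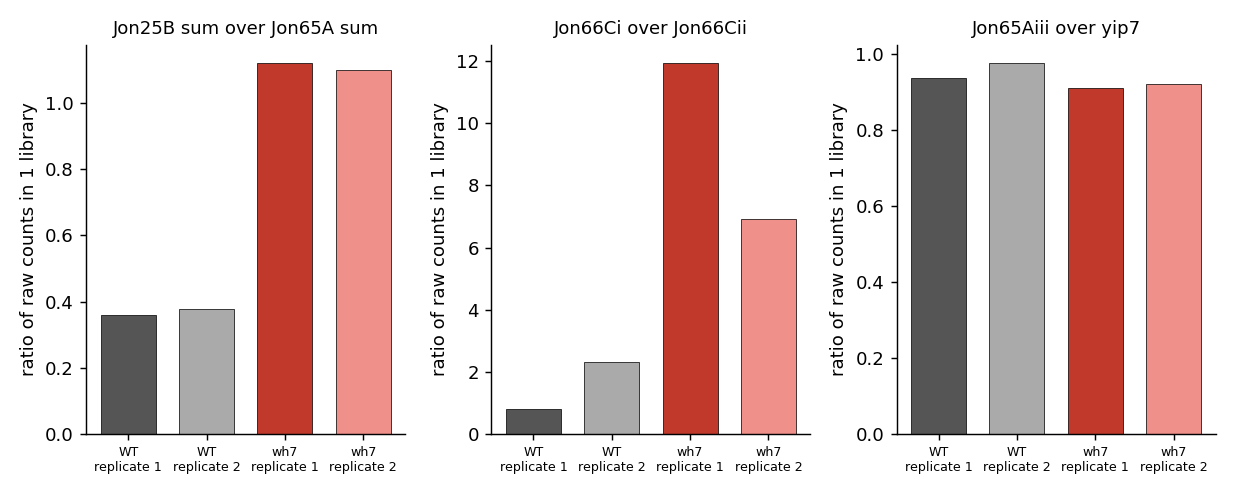
Ratios of raw counts within each library (vertical axes) for the sum of the 25B members over the sum of the 65A members, for Jon66Ci over Jon66Cii and for Jon65Aiii over yip7. The first ratio is near 0.37 in both WT libraries and near 1.1 in both wh7 libraries, the second is 0.788 and 2.32 in WT against 11.9 and 6.92 in wh7, and the third stays between 0.911 and 0.975.

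The other 6 Jonah genes of the table were more abundant together than the members. They summed to 4989780 and 6087211 normalized counts in the WT pools and 3397338 and 3192329 in the wh7 pools, a ratio of 0.595. Jon99Ciii, first in the table by counts summed over the 4 libraries, had a log2 fold change of -0.83 (SE 0.16) and Jon99Cii one of -0.87 (SE 0.16), both close to that of Jon65Aiv. All 16 Jonah genes together made up 8.87% and 10.4% of the counts in WT and 6.49% and 6.74% in wh7. Of these 6 genes and yip7, 3 were lower at an unadjusted p under 0.05 in edgeR's test and none higher. Over all genes tested, 7.32% were lower and 7.23% higher by that limit. The median log2 fold change of this list was -0.75, or -0.20 without WT replicate 2.

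Other digestive enzymes showed either of the directions seen among the members. The trypsins, serine proteases that cut after basic residues, had 5 of 12 genes lower and 0 higher at an unadjusted p under 0.05 in edgeR's test, and their median log2 fold change was -0.15. The amylases and maltases, which break down starch and sugars, had 10 of 11 genes higher and 1 lower by the same limit. Over all genes tested, 7.23% were higher and 7.32% lower by it. The median of these carbohydrases was 0.87. Jon25Bii and Jon25Biii thus lay near the median of the carbohydrases, and Jon65Aiv and Jon65Ai near the lowest trypsin, deltaTry, at -0.81 (SE 0.13), while Jon65Aiii lay below every trypsin listed. Several of these genes were listed in the study from the same libraries.

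**Figure D5:**
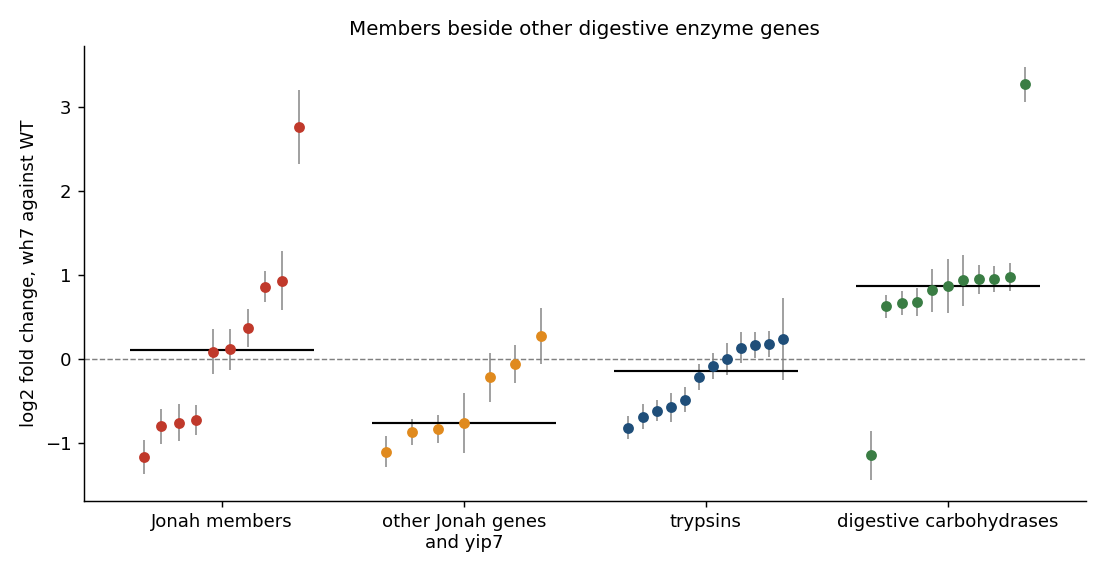
Log2 fold change of wh7 against WT (vertical axis) for the 10 Jonah members, the other 6 Jonah genes with yip7, 12 trypsins and 11 digestive carbohydrases. Points are genes with the SE from edgeR, horizontal lines are medians (0.10, -0.75, -0.15 and 0.87), and the members spread to both sides of 0.

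Regulators of the midgut were looked at beside the members. Of 8 transcription factors of the midgut epithelium and its regions, none had an unadjusted p under 0.05 in edgeR's test, and the median log2 fold change was 0.17. The gene nub, which encodes a transcription factor used as a marker of ECs, stood at 6714 and 20682 normalized counts in the WT pools and 23390 and 21896 in the wh7 pools. WT replicate 1 was the lowest of the 4 libraries here, as for Jon66Ci, Jon25Biii, Jon25Bi and Jon74E, and it was the lower WT pool for 8 of the 10 members. Of 6 genes analysed of Activin and nutrient signalling, which in flies acts on digestive enzyme genes, none met that limit, and the median was 0.20.

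Markers of gut cell types were listed beside the members. The 7 EC markers, which include alphaTry and betaTry, summed to 1753898 and 1927390 normalized counts in the WT pools and 1467531 and 1468946 in the wh7 pools, with 3 higher and 4 lower by log2 fold change and 1 at an unadjusted p under 0.05 in edgeR's test. Most of that sum came from the 2 trypsins, and the other 5 EC markers summed to 114694 and 168693 in WT and 156699 and 144256 in wh7, with overlap. The 10 markers of enteroendocrine cells, the hormone-secreting cells of the gut, were all lower. Of these, 8 had an unadjusted p under 0.05 in edgeR's test, a limit met on the lower side by 7.32% of all genes tested. The enteroendocrine sums were 48707 and 46124 in WT and 24428 and 25963 in wh7. Neither of the 2 copper cell markers met that limit, with sums of 20146 and 9538 in WT and 22849 and 25038 in wh7. None of the 7 visceral muscle markers met it, and they summed to 268910 and 241865 in WT and 195886 and 265092 in wh7. Of 6 progenitor markers listed, 3 were analysed, with sums of 5151 and 7325 in WT and 5682 and 4872 in wh7. The 3 Malpighian tubule markers summed to 13252 and 4865 in WT and 5843 and 6675 in wh7. The 2 hindgut markers summed to 12197 and 7723 in WT and 6328 and 6711 in wh7. By these sums, WT replicate 1 was the highest library for both. Most of the tubule sum in that library was Uro, at 10390 and 1691 in WT and 3391 and 4404 in wh7. Best2, another tubule marker, was not highest there, with 2774 and 3107 in WT and 2375 and 2206 in wh7. The 4 fat body markers summed to 102313 and 173487 in WT and 97875 and 65471 in wh7. Most of that sum was apolpp, at 96255 and 168159 in WT and 93108 and 61602 in wh7. By log2 fold change, 2 fat body markers were lower (apolpp and Lsp2) and 2 higher (Fbp1 and Fbp2, both of few counts). None of the markers in these lists was at 0 in all libraries. The part of cell composition in the differences of the Jonah members was not tested.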

How the data were processed

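The 4 RNA-seq libraries (2 WT, 2 wh7) were grouped by their labels. The authors trimmed reads with Trimmomatic 0.36, aligned them with HISAT2 and quantified them with StringTie 2.1.4, and they deposited raw counts per gene. The genome build and the use of strand are not given in the sources used here. A deposited table of the authors' own comparison (fold changes, p-values and normalized values) was not used. Of 17807 identifiers, 17710 matched a symbol.

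Counts were analysed in R 4.3.3 with edgeR 4.0.16. Genes were kept by filterByExpr (10795), scaled by TMM and compared by the quasi-likelihood test in a model of genotype alone. Benjamini-Hochberg adjustment ran over every tested gene, with a threshold of 0.05. Each SE is the size of the log2 fold change over the root of its F statistic. Normalized counts are counts divided by the effective library size and multiplied by its mean. DESeq2 1.42.0 was an alternative, as were other scalings and filters, a replicate term and leaving out each library. Depth was 93603837 to 101610356 counts per library. Exact (Clopper-Pearson) 95% intervals of shares cover counting error only. Exon lengths, arms and gene order come from the BDGP6.54 annotation, and coordinates were left out because of the unnamed build. All 10 members are named. The other genes named are the listed digestive enzymes, regulators and cell type markers, the nearest neighbours of each member, the 3 genes nearest in pattern to Jon66Ci and *wuho*. The members and lists were chosen with earlier results of these data known.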

Additional observations from a re-analysis of the deposited data

How the results depend on the processing

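The direction and the side of the threshold were kept in 102 of 120 values of single members over 12 alternatives each, 14 passed the threshold only in the alternative and 4 changed sign. The sign changes were in Jon25Bi (-0.11 without WT replicate 1 and -0.04 without wh7 replicate 2, in a range of -0.11 to 0.39 with 1 library left out) and in Jon66Cii (-0.13 without WT replicate 2 and -0.09 without wh7 replicate 2, in a range of -0.13 to 0.34), which overlapped between the genotypes.

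The count of genes called, 52, was 30 with no filter on low counts and 798 by DESeq2, and ran from 0 to 921 with 1 library left out (401 without WT replicate 1, 921 without WT replicate 2 and 0 without either wh7 library, where the 1 wh7 library left is assumed to vary like the WT pools). Members called were 0 in the main test, 5 by DESeq2 and 0 to 5 with 1 library left out (5 without WT replicate 1, 3 without WT replicate 2). The cause was not tested. With the replicate number as a block, 0 genes and 0 members were called. The labels do not say that the numbers mark a shared batch, and deviations of same-numbered libraries had a correlation of -0.14. With the wh7 numbers crossed, a choice made after seeing the data, the block gave 99 genes and 1 member.

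The summed share ratio of 0.822 was 0.745 to 0.917 and the normalized ratio of 0.818 was 0.717 to 0.948 with 1 library left out. Without Jon65Aiv they were 1.02 and 1.01, and the normalized ratio was 0.705 to 0.943 without any other member (chosen after seeing the data). Summing members by protein identity was not run, as no protein sequences were used here. As to depth, the 3 members of low abundance rested on 267 to 3690 raw counts per library and the other 7 on at least 18743.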

Other observations

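Beside the serine proteases, the starch and sugar enzymes held the widest difference of the enzyme lists. Amyrel, an amylase-related gene, stood at 654 and 675 normalized counts in the WT pools and at 5481 and 7324 in the wh7 pools (log2 fold change 3.27, SE 0.21, edgeR adjusted p = 0.0299). Like Jon66Ci it was a gene of low abundance in WT beside abundant relatives. Amy-p stood at 1009404 and 1681520 normalized counts in the WT pools and at 2771009 and 2383901 in the wh7 pools, and its WT pools differed in the same direction as those of Jon25Biii. Mal-A5 was the only one of the 11 carbohydrases to be lower, with 415 and 652 normalized counts in the WT pools and 230 and 253 in the wh7 pools.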
